A study of Mus musculus with 6 samples.

Results

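The genes described here drive or restrain the first decision of the cell cycle, the passage through G1: the D cyclins Ccnd1, Ccnd2 and Ccnd3, their kinases Cdk4 and Cdk6, the CDK inhibitors Cdkn1b, Cdkn1c, Cdkn2a and Cdkn2b, and Rb1, which encodes the retinoblastoma protein. They were taken by gene symbol, and 7 of the 10 were found among the 16472 genes of the authors' deposited table. Cdkn1c, Cdkn2a and Cdkn2b, which encode the inhibitors p57, p16/ARF and p15, were not analysed here. The table compares 3 libraries of HT22 cells exposed to AA147 for 16 h with 3 libraries of HT22 cells given the vehicle DMSO for the same time. HT22 is a single immortalised line from mouse hippocampus that descends from cells carrying a viral large T antigen, and this antigen is known to bind the retinoblastoma protein and its relatives. AA147 is a small molecule known to activate the stress regulators ATF6 and NRF2, and the labels write its dose as 10 mM.

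In G1, mitogens raise the D cyclins, which bind CDK4 or CDK6. These kinases phosphorylate the retinoblastoma protein, so that it lets go of E2F transcription factors and genes for DNA synthesis are transcribed. INK4 proteins such as p15, p16, p18 and p19 bind CDK4 and CDK6 directly, whereas the Cip/Kip proteins p21, p27 and p57 bind whole cyclin-CDK complexes, CDK2 above all. Much of this control acts on protein stability and phosphorylation, which mRNA levels do not show.

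The table gives each gene a single line, without values for the separate libraries, so each level below is the authors' mean normalized count over the 6 libraries, and each error is the authors' standard error (SE) of the log2 fold change. The numerator of the fold change is not named. Positive values are read as higher with AA147, and all directions hold only under this reading. In the authors' deposited table, the NRF2 target Nqo1 was positive at 0.93 (SE 0.067), as AA147 over vehicle would give. The NRF2 targets Gclm at 0.63 (SE 0.081) and Hmox1 at 0.30 (SE 0.108) were positive too. But the ATF6 targets Hspa5 at -0.80 (SE 0.061) and Herpud1 at -0.84 (SE 0.071) were negative, which goes the other way for an activator of ATF6. Of the neuronal markers, 4 of 16 had a line in the authors' deposited table, with Tubb3 at a mean of 1199 and the other 3 at means from 3.93 to 10.6, and Rbfox3, Map2 and Snap25 were not analysed here. Of 8 fibroblast or mesenchymal markers, 7 had a line in the authors' deposited table, with means from 181 to 254004, and 5 of these were called negative, where 11.1% of all genes were. Lists of 5 astrocyte, 5 oligodendrocyte and 5 microglia markers had 2 lines each in the authors' deposited table, with means of at most 927. Of these 6 genes, the astrocyte marker Slc1a3 was called at -1.30 (adjusted p 2.39e-45), the microglia markers Tmem119 at -0.49 (adjusted p 0.000214) and Csf1r at 0.95 (adjusted p 0.0278), and the neuronal Tubb3 was called at 0.43 (adjusted p 5.67e-05), all from the authors' deposited table. The part of these markers in the values of the G1 genes was not tested.

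Of the 7 G1 genes, 1 was called positive and 1 negative in the authors' deposited table, where a call is an adjusted p under 0.05, and 5 were not called. Over all 13597 genes with an adjusted p, 20.2% were called, 9.05% positive and 11.1% negative, so 2 of 7 is near the background. Rb1 was the positive call and Cdkn1b, which encodes p27, the negative one. The D cyclins and both kinases were not called in the authors' deposited table, with log2 fold changes from -0.12 to 0.11. The median over the 7 genes was a log2 fold change of -0.09, against 0.01 over all genes tested. Both calls ended with a Bonferroni adjustment, a null interval of 0.5 or a statistic divided by its robust SD, and that of Cdkn1b also at an adjusted p under 0.01. In bulk RNA, more cells in one phase of the cycle and more RNA per cell cannot be told apart. The plot of fold changes with their intervals sets the 7 genes side by side.

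**Figure D1:**
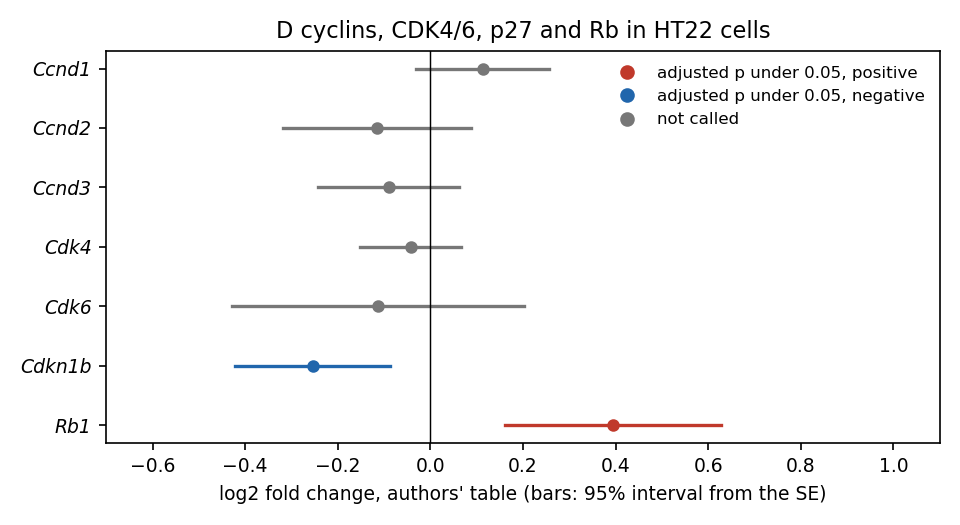
Log2 fold change of the 7 G1 genes (points) with 95% intervals computed from the authors' SE (bars), read as AA147 over vehicle. Only Rb1 (0.39) and Cdkn1b (-0.25) lie with their whole interval on one side of 0, and both were called.

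The D cyclins are the regulatory partners of CDK4 and CDK6. Ccnd1, which encodes cyclin D1 and is the classic mitogen-induced member, had a mean of 4957 normalized counts in the authors' deposited table. Its log2 fold change was 0.11 (SE 0.073, adjusted p 0.304), and the 95% interval ran from -0.03 to 0.26. In GENCODE M39, 48.4% of its exon bases, taken over all its transcripts, lie opposite Lto1. Strand cannot assign reads from such bases in non-stranded libraries. Whether the annotation that the authors counted on holds this overlap is not known. Ccnd2, for cyclin D2, had a mean of 1595 and a log2 fold change of -0.12 (SE 0.103, adjusted p 0.492) as listed in the authors' deposited table, with an interval from -0.32 to 0.09. Ccnd3, for cyclin D3, had a mean of 2852 and a log2 fold change of -0.09 (SE 0.078, adjusted p 0.479) as listed in the authors' deposited table, with an interval from -0.24 to 0.06. With a trend on length, GC and mean subtracted, Ccnd3 moved to -0.03. Cyclin D1 thus had the sign opposite to D2 and D3, but each interval includes 0.

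The differences between D cyclins had intervals that include 0. Ccnd1 exceeded Ccnd2 by 0.23 on the log2 scale, with an interval of the difference from -0.02 to 0.48, and Ccnd3 by 0.20, with an interval from -0.01 to 0.41. These intervals combine the SEs as if the genes were independent, which genes of the same libraries are not. Per kilobase of transcript, Ccnd3 and Ccnd1 were close, at 1413 and 1306 normalized counts, and Ccnd2 was at 252. Cyclin D3 made up 47.6%, D1 44.0% and D2 8.48% of the summed D cyclin level per length. These shares rest on canonical lengths of 2018 bases for Ccnd3 and 3796 for Ccnd1. Without the lengths the order turns, with Ccnd1 at a mean of 4957 and Ccnd3 at 2852. If the fold changes are taken at face value, the summed level differed between the groups by -0.003 on the log2 scale, for which no error could be given.

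Cdk4 and Cdk6 encode the alternative catalytic partners of the D cyclins. With a mean of 29212 normalized counts, Cdk4 ranked above 99.5% of the genes in the authors' deposited table. It had the smallest SE of the 7 genes and a log2 fold change of -0.04 (SE 0.055, adjusted p 0.662) as listed in the authors' deposited table. The interval ran from -0.15 to 0.07, which is a change between -9.95% and 4.63%. Its sign turned, still without a call, when a trend on length, GC and mean was subtracted, and 18.8% of its exon bases lie opposite Tspan31. Cdk6 had a mean of 525 and a log2 fold change of -0.11 (SE 0.161, adjusted p 0.701) as listed in the authors' deposited table. Its interval, from -0.43 to 0.20, is far wider, and the SE was 1.41 times the median SE of the 500 genes nearest in mean. At this SE a log2 fold change under 0.41 in size would not have been called, so a moderate change of Cdk6 was not detectable. Per kilobase, the Cdk4 level was 14038 and the Cdk6 level 45.1 normalized counts, a ratio of 311. This ratio rests on canonical lengths of 2081 bases for Cdk4 and 11657 for Cdk6. The annotation that the authors counted on is not given, and without the lengths the difference is smaller. The plot of levels per transcript length shows this spread over the G1 genes.

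**Figure D2:**
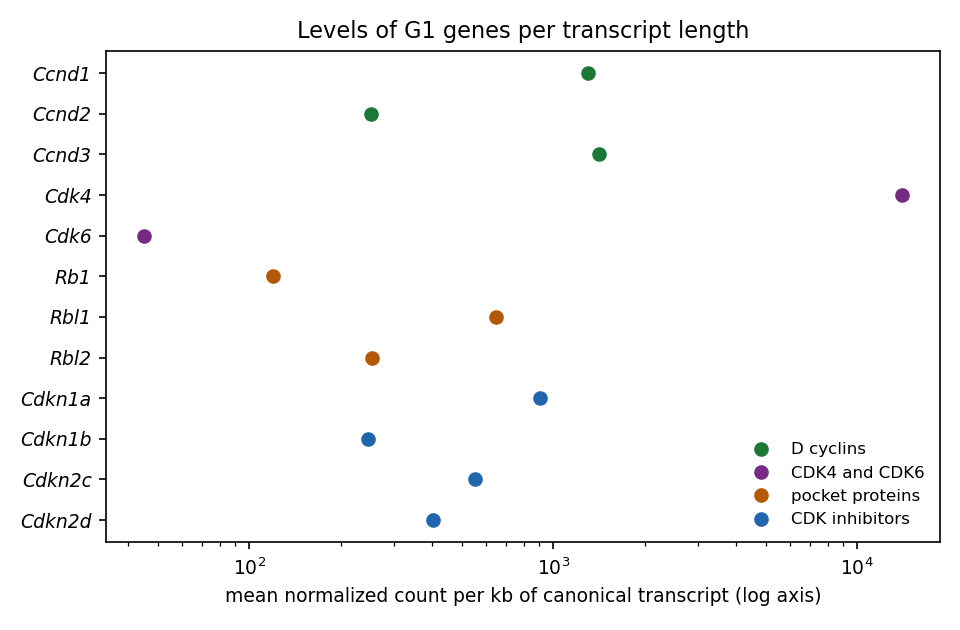
Mean normalized count over the 6 libraries per kilobase of canonical transcript, on a log axis, for D cyclins, CDK4 and CDK6, the Rb family and the CDK inhibitors in the table. Cdk4 at 14038 stands above the other genes, Ccnd1 and Ccnd3 follow at 1306 and 1413, and Cdk6 is lowest at 45.1.

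The promoters of the 2 kinase genes and of Cdkn1b are shown because the kinases differ most in level, and Cdkn1b is a called gene. RefSeq promoter windows for mouse assembly GRCm38.p6 covered 4 of the 7 genes, and the 250 bases before the annotated start were searched on both strands. The Cdk4 window is chr10:127063285-127063534 on the + strand, the Cdk6 window chr5:3343643-3343892 on the + strand, and the Cdkn1b window chr6:134920151-134920400 on the + strand. Capitals mark the E-box CACGTG and the antioxidant response element core TGACNNNGC in Cdk4, the E-box in Cdk6, and the CCAAT box in Cdkn1b.
Cdk4: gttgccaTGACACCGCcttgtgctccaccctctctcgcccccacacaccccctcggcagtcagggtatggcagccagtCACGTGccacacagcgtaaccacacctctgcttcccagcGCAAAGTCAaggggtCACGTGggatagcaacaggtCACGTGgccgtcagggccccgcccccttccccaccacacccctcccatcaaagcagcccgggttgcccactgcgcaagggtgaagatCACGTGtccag
Cdk6: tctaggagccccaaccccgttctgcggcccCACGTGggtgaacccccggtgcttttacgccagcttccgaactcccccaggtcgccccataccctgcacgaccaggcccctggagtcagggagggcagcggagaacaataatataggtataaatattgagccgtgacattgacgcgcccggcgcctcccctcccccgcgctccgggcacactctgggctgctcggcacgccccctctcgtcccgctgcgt
Cdkn1b: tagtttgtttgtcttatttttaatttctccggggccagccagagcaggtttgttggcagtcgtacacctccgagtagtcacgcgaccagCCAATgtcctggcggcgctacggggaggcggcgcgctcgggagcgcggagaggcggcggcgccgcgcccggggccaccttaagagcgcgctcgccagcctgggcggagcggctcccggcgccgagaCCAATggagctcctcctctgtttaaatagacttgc

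The E-box is the motif bound by MYC and related factors, and the antioxidant response element core by NRF2. Cdk4 held 4 E-boxes, which begin 172, 118, 98 and 11 bases before the start, and 2 antioxidant response element cores, at 243 and 133 bases. No match of one motif overlapped the other. Of all 32851 windows of this length, 6.02% held at least 1 E-box and 0.0213%, or 7 windows, at least 4. At least 1 antioxidant response element core was in 10.2% of the windows and at least 2 in 0.658%. Cdk6 held 1 E-box, at 220 bases. In the authors' deposited table Myc was called positive at 0.25 (SE 0.072, adjusted p 0.00484) and the related Mxd4 negative at -0.32 (SE 0.088, adjusted p 0.00307). Max at 0.09, Mxd1 at 0.22 and Mxd3 at 0.19 were not called. The part of these factors in the level or fold change of Cdk4 was not tested. Cdkn1b held 2 CCAAT boxes, the motif of NF-Y, at 161 and 35 bases, and 10.1% of all windows held at least 2. It held no E-box, no forkhead motif TGTTTAC and none of the E2F motifs TTTCCCGC, TTTCGCGC, TTTGCCGC and TTTGGCGC. Ccnd3 had 2 windows, one with an antioxidant response element core at 165 bases and a forkhead motif at 243, the other with a CCAAT box at 108. A match of letters is a description and no evidence of binding.

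Cdkn1b encodes p27, the inhibitor that holds CDK2 complexes inactive in resting cells and also helps to assemble cyclin D with CDK4. It had a mean of 1119 normalized counts and a log2 fold change of -0.25 (SE 0.086, adjusted p 0.0193) as listed in the authors' deposited table. This is a change of -16.1%, with an interval from -25.3% to -5.80%. Taken at face value, the group means were 1020 in the numerator group, read as AA147, and 1217 in the other. The p27 protein is known to be set largely by degradation through SKP2. The Skp2 transcript was at -0.10 (SE 0.068, adjusted p 0.330) as listed in the authors' deposited table and was not called.

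The other CDK inhibitors with a line in the table had fold changes of both signs. Cdkn1a, which encodes p21, the p53-induced relative of p27, had a log2 fold change of 0.62 (SE 0.071, adjusted p 1.81e-16) as listed in the authors' deposited table, at a mean of 1735. The fold change of Cdkn1a exceeded that of Cdkn1b by 0.87, with an interval of the difference from 0.65 to 1.09. Among INK4 genes, Cdkn2d, for p19, was called positive at 0.32 (SE 0.107, adjusted p 0.0161) as listed in the authors' deposited table. Cdkn2c, for p18, was at -0.17 (SE 0.078, adjusted p 0.106) as listed in the authors' deposited table and was not called. In each of these inhibitor families the members measured therefore had opposite signs. Per length, Cdkn1a held 42.9% of the summed level of the 4 inhibitors, Cdkn2c 26.3%, Cdkn2d 19.2% and Cdkn1b 11.7%. These shares too rest on canonical lengths, and without them Cdkn1b, at a mean of 1119, lay above Cdkn2d, at 626.

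Rb1, the substrate of these kinases and the repressor of E2F, had the largest fold change of the 7 genes. Its mean was 601 normalized counts and its log2 fold change 0.39 (SE 0.119, adjusted p 0.00768) as listed in the authors' deposited table. This is a change of 31.4%, with an interval from 11.7% to 54.5%, or group means of 683 in the group read as AA147 and 520 in the other. Of its exon bases, 4.05% lie opposite Rcbtb2 and 3.38% opposite Lpar6. Its relatives of the pocket protein family had the same sign. Rbl2, for p130, which works with E2F4 in resting cells, was called positive at 0.30 (SE 0.091, adjusted p 0.00742) as listed in the authors' deposited table. Rbl1, for p107, was at 0.15 (SE 0.078, adjusted p 0.167) as listed in the authors' deposited table and was not called. The fold change of Rb1 exceeded that of Rbl1 by 0.24, with an interval from -0.04 to 0.52, which includes 0. Per length, Rbl1 held 63.4%, Rbl2 24.8% and Rb1 11.8% of the summed pocket protein level.

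**Figure D3:**
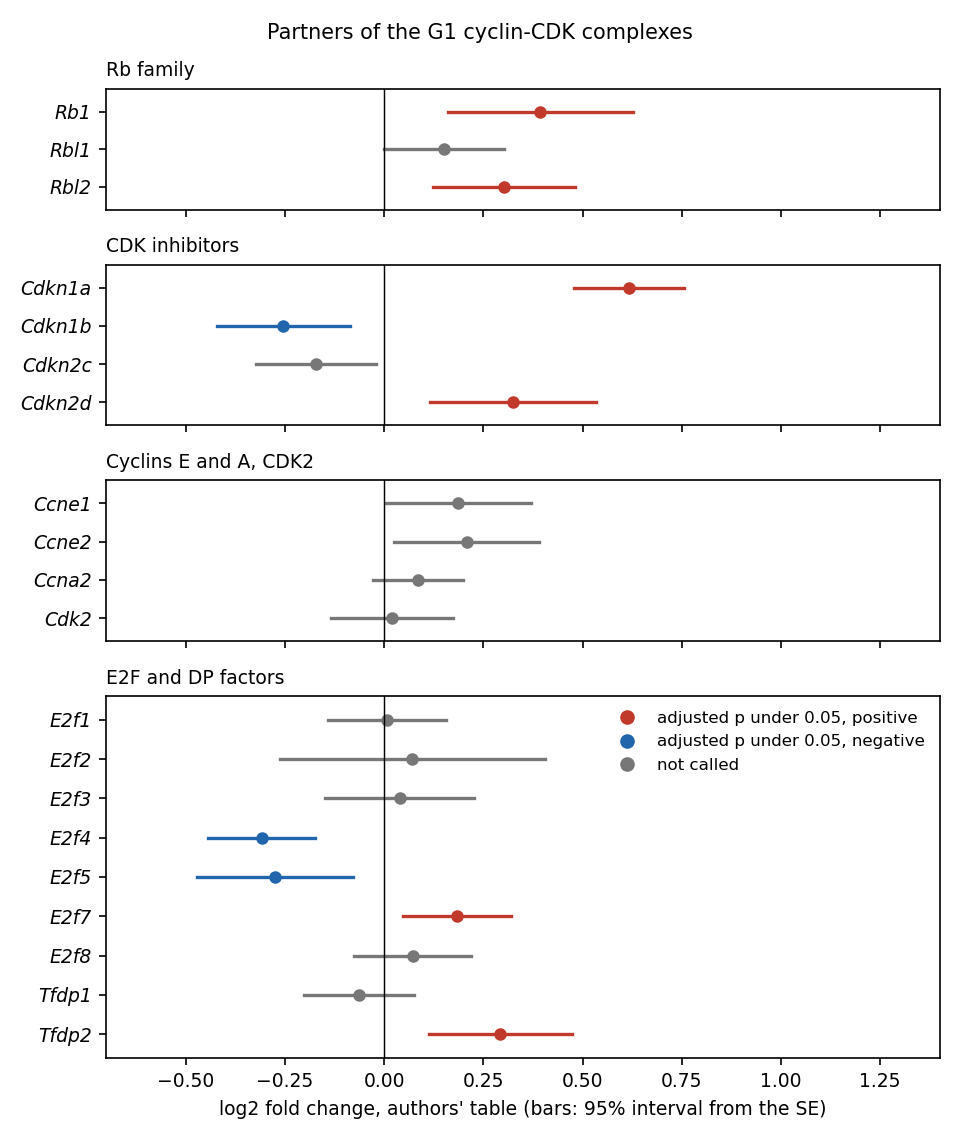
Log2 fold changes (points) with 95% intervals from the authors' SE (bars) for the Rb family, the CDK inhibitors, cyclins E and A with CDK2, and the E2F and DP factors. Cdkn1a (0.62) and Cdkn1b (-0.25) lie on opposite sides of 0, Rb1, Rbl1 and Rbl2 on the positive side, and E2f4 (-0.31) and E2f5 (-0.28) on the negative side.

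A wider list of 25 partners and modifiers of CDK4/6 and CDK2 had 23 genes in the authors' deposited table. Calls were positive for 3 and negative for 1. This is 17.4%, against 20.2% of all genes and 24.9% of those with a mean of at least 100. Besides Cdkn1a, Rbl2 and Cdkn2d, the negative call was Fbxo31, a ligase subunit reported to target cyclin D1, at -0.20 (SE 0.075, adjusted p 0.0412) as listed in the authors' deposited table. Other ligase genes of the list were not called, with Ambra1 at -0.006 (adjusted p 0.970), Fbxo4 at -0.10 (adjusted p 0.423) and Fbxw7 at 0.11 (adjusted p 0.613). The abundant S phase cyclin gene Ccna2 was at 0.09 (SE 0.057, adjusted p 0.327) and Trp53, for p53, at 0.14 (SE 0.072, adjusted p 0.187) as listed in the authors' deposited table, neither of them called. With a trend on length, GC and mean subtracted, Trp53 moved to 0.21 and was called (adjusted p 0.0177). The cyclin E genes, which act with CDK2 at the end of G1, were both positive without a call, Ccne1 at 0.19 (adjusted p 0.153) and Ccne2 at 0.21 (adjusted p 0.101) as listed in the authors' deposited table. Cdk2 itself was at 0.02 (SE 0.078, adjusted p 0.911) as listed in the authors' deposited table.

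E2F factors and the DREAM complex stand directly downstream of the pocket proteins. Of 17 such genes, 16 had a line in the authors' deposited table, with 3 called positive, 2 negative and a median of 0.06. The share called was 31.2%, against 20.2% of all genes and 24.9% of those with a mean of at least 100. The negative calls were E2f4 at -0.31 (SE 0.069, adjusted p 0.00012) and E2f5 at -0.28 (SE 0.100, adjusted p 0.033) as listed in the authors' deposited table, which encode the E2F proteins that pair with p107 and p130 as repressors. The activator genes E2f1, E2f2 and E2f3 were at 0.01, 0.07 and 0.04 in the authors' deposited table, with none called. Positive calls were Foxm1, a driver of G2 and mitotic genes, at 0.31 (SE 0.062, adjusted p 8.69e-06), the DP partner Tfdp2 at 0.29 (SE 0.092, adjusted p 0.0104) and the atypical repressor E2f7 at 0.18 (SE 0.069, adjusted p 0.0403) as listed in the authors' deposited table. Rbbp4, an abundant histone-binding subunit, was at 0.05 (adjusted p 0.551) as listed in the authors' deposited table.

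Textbook E2F targets were counted too, in a list that shares Ccne1, Ccne2, Rbl1 and E2f1 with the lists above. Whether they follow the retinoblastoma protein in these cells was not tested. All 30 had a line in the authors' deposited table, with 6 called positive, 1 negative and a median of 0.02. The share called was 23.3%, between the 20.2% of all genes and the 24.9% of those with a mean of at least 100. Positive calls included genes for subunits of ribonucleotide reductase, an enzyme of nucleotide synthesis, with Rrm1 at 0.22 (SE 0.055, adjusted p 0.000856) and Rrm2 at 0.23 (SE 0.063, adjusted p 0.0025) as listed in the authors' deposited table. The negative call was the replication helicase gene Mcm3 at -0.15 (SE 0.054, adjusted p 0.038) as listed in the authors' deposited table. Among the abundant uncalled targets, the maintenance methyltransferase gene Dnmt1 and the helicase gene Mcm6 were both at -0.06 in the authors' deposited table, and the sign of Dnmt1 turned with the trend on length, GC and mean subtracted.

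Of 39 regulators known to act on transcription of D cyclin or inhibitor genes, 38 had a line in the authors' deposited table and 36 an adjusted p. Calls were positive for 5 and negative for 6, and the median was 0.05. The share called was 30.6%, against 20.2% of all genes and 24.9% of those with a mean of at least 100. The smallest adjusted p belonged to Id1, an inhibitor of helix-loop-helix factors, at -0.41 (SE 0.086, adjusted p 2.64e-05) as listed in the authors' deposited table. Its relatives Id2 and Id3 were called negative too, at -0.26 (SE 0.096, adjusted p 0.0369) and -0.24 (SE 0.080, adjusted p 0.0182) as listed in the authors' deposited table. Fosl1, for the AP-1 subunit FRA1, was called positive at 0.44 (SE 0.095, adjusted p 6.83e-05) and Zbtb17, for the MYC partner MIZ1, at 0.30 (SE 0.081, adjusted p 0.00252) as listed in the authors' deposited table. The Polycomb methyltransferase gene Ezh2, whose product silences the Cdkn2a locus, was called positive at 0.25 (SE 0.070, adjusted p 0.00335) as listed in the authors' deposited table. Its partner Suz12 was at 0.19 (SE 0.078, adjusted p 0.0649), and the beta-catenin gene Ctnnb1 at -0.04 (SE 0.056, adjusted p 0.675) as listed in the authors' deposited table, neither of them called. Another Polycomb gene of the list, Cbx7, was called negative at -0.31 (SE 0.113, adjusted p 0.0304). The Polycomb genes Bmi1 at 0.03, Eed at 0.09, Rnf2 at 0.12 and Ring1 at -0.04 were not called.

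**Figure D4:**
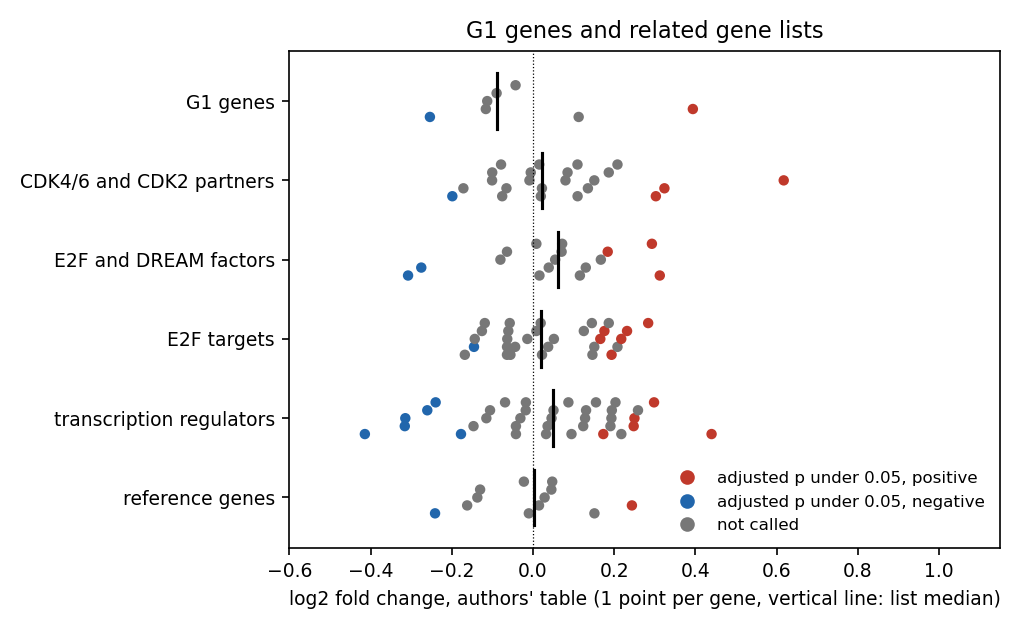
Log2 fold change of each gene with an adjusted p (points), for the 7 G1 genes, the related lists and 12 reference genes, with the list median as a vertical line. The medians lie between -0.09 for the G1 genes and 0.06 for the E2F and DREAM factors, and Cdkn1a at 0.62 is the point farthest from 0.

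The G1 genes were compared in level and fold change with the whole table. The lowest of the 7 means, 525 for Cdk6, was above the median of 430 over all genes in the authors' deposited table. The median absolute log2 fold change of called genes was 0.35 in the authors' deposited table, so Rb1 at 0.39 was slightly above it and Cdkn1b at -0.25 below it in size. Both exceeded the median of 0.16 over all genes tested, and the other 5 were below it. The plot of mean against fold change shows where they lie.

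**Figure D5:**
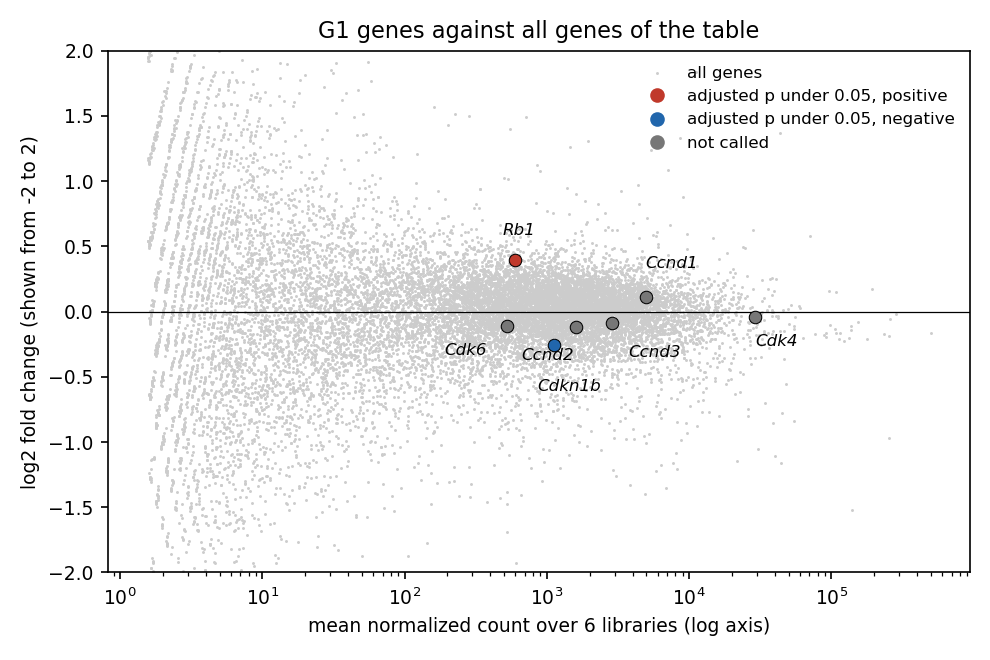
Mean normalized count (log axis) against log2 fold change for all 16472 genes (grey, shown between -2 and 2) with the 7 G1 genes marked. Rb1 at 0.39 and Cdkn1b at -0.25 are the called genes, and Cdk4 lies at the abundant end at -0.04.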

How the data were processed

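HT22 mRNA was sequenced from 3 AA147 and 3 vehicle libraries, non-stranded per the labels' protocols. The submitters' processing notes name DESeq2 and build mm9; aligner, counter and annotation are not given in the sources used here. The authors deposited 1 table: a mean normalized count per gene (a signal, divided by library size), a log2 fold change with its SE, a test score equal to their quotient, and a p-value with an adjusted p-value. The depth of each library is unknown, and no source says that libraries came from separate cultures. The p-values test each fold change against the spread between these libraries, which may leave out the spread between cultures.

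No test was run on libraries. A gene was called at an adjusted p under 0.05, over the 13597 genes that had one. Intervals are the log2 fold change plus or minus 1.96 SE. Group means assume equal groups. Lengths are of canonical GENCODE M39 transcripts, and promoters are from RefSeq. The trend alternative was a robust quadratic regression over 9620 genes, 90.5% of those with a mean of at least 100. The members and lists were chosen with earlier results of these data known. Named genes were the members, and in each list the 3 with the smallest adjusted p and the 2 most abundant uncalled ones; any other was chosen after its values were seen. One gene that this rule names is not reported here. Python 3.11.15, pandas 2.3.3, SciPy 1.17.1, statsmodels 0.14.6 and BLAST 2.17.0 were used. The code for calls was tested on simulated data, except for the trend alternative.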

Additional observations from a re-analysis of the deposited data

How the results depend on the processing

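No paired analysis was possible because values for the separate libraries were not at hand, and for the same reason other normalizations, refits, count filters and leaving out each replicate were not run. Of 9 alternatives, centring on abundant genes or on reference genes, and adjusting over all genes with a p, left both calls, Rb1 and Cdkn1b, in place. Keeping genes with a mean of at least 100, and subtracting a trend of fold change on transcript length, GC and mean, left them too. The centring shifts were only 0.0132 and 0.0023 on the log2 scale, so they could hardly remove a call. Keeping genes with a mean of at least 100 lowered both adjusted p, to 0.00641 for Rb1 and 0.0162 for Cdkn1b. The trend moved Ccnd3 from -0.09 to -0.0254 and Cdk4 from -0.04 to 0.0632, both still uncalled (adjusted p 0.864 and 0.448), and raised Trp53 from 0.14 to 0.213, then called (adjusted p 0.0177). E2f1, Dnmt1 and Ctnnb1, also uncalled, changed sign within 0.02 of 0, to -0.00485 for E2f1 with centring on abundant genes, and to 0.00224 and 0.0160 for the other 2 with the trend.

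The stricter settings removed calls by their construction. At an adjusted p under 0.01, Cdkn1b at -0.25 was lost (adjusted p 0.0193) and Rb1 kept, which left 1 of the 7 genes against 13.4% of all genes. Under Bonferroni (5.69% of all genes called), a null interval of 0.5 (1.45%) or the statistic divided by its robust SD of 1.80 (3.6%), 0 of the 7 were called. Both Cdkn1b at -0.25 and Rb1 at 0.39 were lost. At an unadjusted p under 0.05 in the authors' DESeq2 output, 2 of the 7 passed, beside 4300 of all 16472 genes. The lists moved likewise. The G1 partners went from 4 calls to 2 at 0.01, 1 with Bonferroni, 0 with the null interval and 1 with the divided statistic. E2F and DREAM factors went from 5 to 2, 1, 0 and 0, E2F targets from 7 to 4, 0, 0 and 0, regulators from 11 to 6, 1, 0 and 0, and reference genes from 2 to 1, 0, 0 and 0 in the same order. Imprinted genes went from 4 to 3 at 0.01 and with Bonferroni, 0 with the null interval and 1 with the divided statistic. Of the milder settings, centring on abundant genes (19.9% of all genes called) gave 4 calls among E2F and DREAM factors, 5 among E2F targets and 10 among regulators. Adjusting over all genes (16.0% called) gave 6 E2F targets and 10 regulators, and the trend (23.8%) 3 imprinted genes. Keeping a mean of at least 100 gave 3 reference genes, with 24.9% of the genes kept called.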

Other observations

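Cdkn1c is an imprinted gene, and a list of 21 imprinted genes, including its neighbours, had 9 lines in the authors' deposited table, 8 of them with an adjusted p. Of these, 4 were called negative and 0 positive, 50% against 11.1% called negative over all genes, with a median log2 fold change of -0.29 against 0.01 over all genes tested. Gnas, which encodes a G protein subunit, was at -0.37 (SE 0.064, adjusted p 2.68e-07), Igf2r, for the receptor that clears IGF2, at -0.82 (SE 0.147, adjusted p 7.23e-07), and Dcn, for decorin, at -0.81 (SE 0.174, adjusted p 6.18e-05) as listed in the authors' deposited table. The remaining negative call was Grb10, an adaptor that restrains insulin and IGF1 receptors, at -0.21 (SE 0.079, adjusted p 0.0386) as listed in the authors' deposited table. Kcnq1ot1, the antisense RNA of the Cdkn1c domain, was at -0.16 with an SE of 0.498 (adjusted p 0.884), and Peg3 at -0.02 (adjusted p 0.960), both from the authors' deposited table. Dcn is also one of the 5 mesenchymal markers called negative.

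Each of the 7 G1 genes shares exon bases with a gene on the opposite strand in GENCODE M39. The libraries were not stranded, so strand cannot assign reads there. Whether the authors' annotation holds these overlaps is not known. The partner of Ccnd1, Lto1, appears under its older symbol Oraov1 at a mean of 200.4 and a log2 fold change of 0.17 (SE 0.186, adjusted p 0.601) as listed in the authors' deposited table. The partner of Cdk4, Tspan31, was called negative at -0.18 (SE 0.059, adjusted p 0.0183) at a mean of 4622 in the authors' deposited table. Of the partners of Rb1, Rcbtb2 was called negative at -0.22 (SE 0.075, adjusted p 0.0208) as listed in the authors' deposited table, and Lpar6 was at 0.16 (SE 0.189, adjusted p 0.623) and not called. Ccnd3 has a processed pseudogene, Ccnd3-ps, 96.3% identical over 881 bases, and stretches of the Cdk6 transcript are 92.1% identical to Gm61537 over 393 bases and to Gm67208 over 329 bases. How the authors' counting treated such reads is not given in the sources used here. The part of these overlaps and copies in the fold changes was not tested.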
